A study of Mus musculus with 14 samples.

Results

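In all, 10 genes of the transforming growth factor beta (TGF-beta) pathway were followed in colonic lamina propria macrophages of mice with and without a functional IL-10 receptor. They were chosen by name, as the ligand TGFB1, its activating integrin subunit ITGB8, the receptors TGFBR1 and TGFBR2, the signal-carrying SMAD2 and SMAD3, the inhibitory SMAD7, the corepressors SKI and SKIL, and the TGF-beta-induced matrix protein TGFBI. All 10 of 10 members were found among the 24982 genes of the count table, and 9 had enough reads to be tested. Each library was bulk RNA-seq of sorted macrophages from the colon and cecum of 1 mouse. The cells had been gated as CD45+, Ly6G-, CD103-, CD64+ CD11b+ and, last, Ly6C- MHCII+. All mice were 5 weeks old, on the C57BL/6 background, and carried the *Cdcs1* allele, a colitis susceptibility interval, so that the controls carried it too. WT mice had *Cdcs1* alone (5 libraries). IL10RAKO mice were *Cdcs1*, *Il10ra*-/- (4 libraries), DKO mice were *Cdcs1*, *Il10ra*-/-, *Ccr2*-/- (4 libraries), and CCR2KO was a single *Cdcs1*, *Ccr2*-/- mouse. Both knockouts are carried by every cell of the mouse, so a change in macrophages may arise in other cells that lost the same gene. The paper reports colitis at this age in mice without *Il10ra*, less severe where *Ccr2* was also lost. Its mice that kept *Il10ra* had no colitis by histology. Loss of *Il10ra* and an inflamed colon therefore cannot be told apart in the comparisons with WT. The comparisons used 12 libraries, 4 mice each of WT, IL10RAKO and DKO, which held between 13085287 and 21216468 reads. WT mouse 11 (12153000 reads, 11670 genes with a read, the fewest of the 14 libraries) was left out of the study's own normalized table and is given as a single value, as is the CCR2KO mouse.

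TGF-beta is secreted bound to a latency peptide and must be released, among others by integrin alpha-v beta-8, before it can bind. The active ligand brings TGFBR2 and TGFBR1 together, TGFBR2 phosphorylates TGFBR1, and TGFBR1 phosphorylates SMAD2 and SMAD3, which then enter the nucleus with SMAD4. SMAD7 acts at the receptors to stop the signal, and SKI and SKIL hold SMAD complexes inactive on DNA. In the gut, TGF-beta takes part in the differentiation of incoming monocytes into resident macrophages, and together with IL-10 it restrains the inflammatory output of these cells.

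The members that passed the test described below against WT, in both genotypes that lacked *Il10ra*, were the receptor TGFBR2 (lower) and the matrix protein TGFBI (higher). The TGFBR2 call was close to the threshold, and was lost in both with WT mouse 11 added or without certain single mice. The TGFBI call in IL10RAKO was also lost without certain single mice. The promoters of TGFBR2 and TGFBI are shown because these members passed. Each is the stretch from 250 bases before to 50 bases after the RefSeq start (GRCm38.p6, the build called mm10), written 5′ to 3′ on the gene's strand, with the core SMAD-binding element CAGAC, or GTCTG on the other strand, in capitals. The TGFBI window lies at chr13:56609336-56609635 on the plus strand and the TGFBR2 window at chr9:116175314-116175613 on the minus strand.
TGFBI: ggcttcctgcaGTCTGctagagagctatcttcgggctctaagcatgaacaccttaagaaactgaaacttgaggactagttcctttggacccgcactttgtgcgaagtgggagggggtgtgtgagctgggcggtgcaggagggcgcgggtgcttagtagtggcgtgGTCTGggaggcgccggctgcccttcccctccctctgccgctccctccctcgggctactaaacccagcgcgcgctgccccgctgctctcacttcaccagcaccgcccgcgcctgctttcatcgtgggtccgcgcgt
TGFBR2: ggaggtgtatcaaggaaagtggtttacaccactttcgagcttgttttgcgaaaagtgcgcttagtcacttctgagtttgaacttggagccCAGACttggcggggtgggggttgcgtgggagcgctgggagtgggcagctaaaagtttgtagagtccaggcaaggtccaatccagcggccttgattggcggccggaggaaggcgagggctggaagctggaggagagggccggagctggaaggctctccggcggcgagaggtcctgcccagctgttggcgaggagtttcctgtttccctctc
The TGFBI window held 2 matches, both reading GTCTG, which began 239 and 85 bases before the start. The TGFBR2 window held 1, reading CAGAC, 160 bases before the start. These 5 letters are common: 49.6% of the 32851 promoters in the table held them on one strand or the other. The STAT element TTCNNNGAA (in 8.3% of promoters) and the AP-1 element TGANTCA (in 7.81%), searched the same way on both strands, had no match in either window, and the motifs searched do not overlap. Entries were found for 7 of the 10 members. Besides these windows, CAGAC or GTCTG was found once in that of ITGB8 and once in 1 of the 2 windows of TGFBR1, and in none of those of TGFB1, SMAD3 or SKI. A match is a string of letters and not a bound site.

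The targeted genes were read first, to check the labels. IL10RA was at 217 to 380 CPM (read counts per 1000000 reads, after TMM scaling of the library sizes) in the 4 WT mice, and at 4.89 to 11.2 CPM in IL10RAKO and 3.41 to 7.59 CPM in DKO. CCR2, the chemokine receptor that lets monocytes leave the bone marrow, was at 514 to 702 CPM in WT and 361 to 627 CPM in IL10RAKO, against 3.92 to 6.68 CPM in DKO and 4.3 CPM in the CCR2KO mouse. No library went against its label for these genes.

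The defining macrophage genes were present in every library. CSF1R was at 1998 CPM or more, LYZ2 at 4473 CPM or more and C1QA at 829 CPM or more in all 12. The 11 macrophage markers summed to a median of 33720 CPM in WT, 46457 CPM in IL10RAKO and 44547 CPM in DKO, with the MHC class II gene H2-AB1 the most abundant in each library. Several markers of other cells moved with genotype. All 7 fibroblast markers were lower in both knockouts by the test, their sum falling from 311 to 585 CPM in WT to 20.9 to 57.1 CPM in IL10RAKO and 19.9 to 73.3 CPM in DKO, with the collagen gene COL3A1 the most abundant in WT (161 to 356 CPM). Of 5 neutrophil markers 4 rose in both knockouts, and the 5 summed to 75.1 to 122 CPM in WT, 137 to 303 CPM in IL10RAKO and 155 to 263 CPM in DKO. CSF3R was the most abundant of these in all 12 libraries, while S100A9 had no read in any WT library and reached 40.8 CPM in IL10RAKO mouse 2. Of 4 monocyte markers 2 rose in both knockouts. These were LY6C2 (WT 5.8 to 7.64 CPM, IL10RAKO 38.4 to 177 CPM, DKO 74.9 to 89 CPM) and PLAC8. KIT, 1 of 2 tested mast cell markers, also rose in both (10.6 to 32.7 CPM in WT, 70.3 to 96.7 CPM in IL10RAKO and 71.8 to 120 CPM in DKO). Of 4 endothelial markers 1 fell in IL10RAKO and 2 in DKO, 1 of 4 dendritic cell markers (XCR1) rose in IL10RAKO and 1 of 5 tested T and NK cell markers (NKG7) in DKO, and none of the 4 B and plasma cell or 6 epithelial markers passed. Of the 11 macrophage markers themselves, 3 rose and 1 fell in IL10RAKO, and 1 rose and 2 fell in DKO. The endotoxin coreceptor CD14 rose by 1.91 and 1.74 on the log2 scale, and the resident macrophage gene MRC1 fell by 2.09 and by 3.21. In bulk RNA, fewer cells of a type and less RNA per cell cannot be told apart, and the part of these cells in the results below was not tested.

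A few libraries stood apart from the others of their genotype. The 6 epithelial markers summed to 982 CPM in WT mouse 10, with KRT8 at 618 CPM, against 37.3 to 189 CPM over the other 11 libraries compared. In WT mouse 11, outside the fit, they summed to 2497 CPM, and in the CCR2KO mouse to 283 CPM. Transcripts of Y-linked genes outweighed XIST in 1 of 4 WT, 2 of 4 IL10RAKO and 3 of 4 DKO libraries, and in WT mouse 11, so the sexes were not balanced over genotypes. No pair of libraries of a genotype agreed within sampling noise: the smallest chi-square per degree of freedom was 30.9.

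Levels between genes were compared per kilobase of exon (RPKM, the CPM of a gene divided by its exon length in kilobases). In WT, TGFBI stood highest at 313 ± 54.6 RPKM (SD, n = 4). TGFBR2 followed at 43.7 ± 5.31, TGFBR1 at 36.2 ± 13.5, SKIL at 33.7 ± 9.81, TGFB1 at 22.3 ± 4.54, SKI at 15.0 ± 3.61 and SMAD7 at 11.9 ± 2.47 RPKM. SMAD2 was at 7.59 ± 0.97, SMAD3 at 3.57 ± 0.479 and ITGB8 at 0.0501 ± 0.0466 RPKM. From TGFBR2 down to SMAD7 the ranges of mean ± SD of neighbours in this order overlapped, so that neighbours there do not differ beyond the spread between mice. TGFBI above TGFBR2, SMAD7 above SMAD2, SMAD2 above SMAD3 and SMAD3 above ITGB8 were apart by more than the sum of their SDs. The length used matters for TGFB1, SKIL and TGFBI, which are at 43.7, 48.6 and 393 RPKM when counted over their longest transcript only. SKIL then stands above TGFBR2 (44.2 RPKM).

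**Figure D1:**
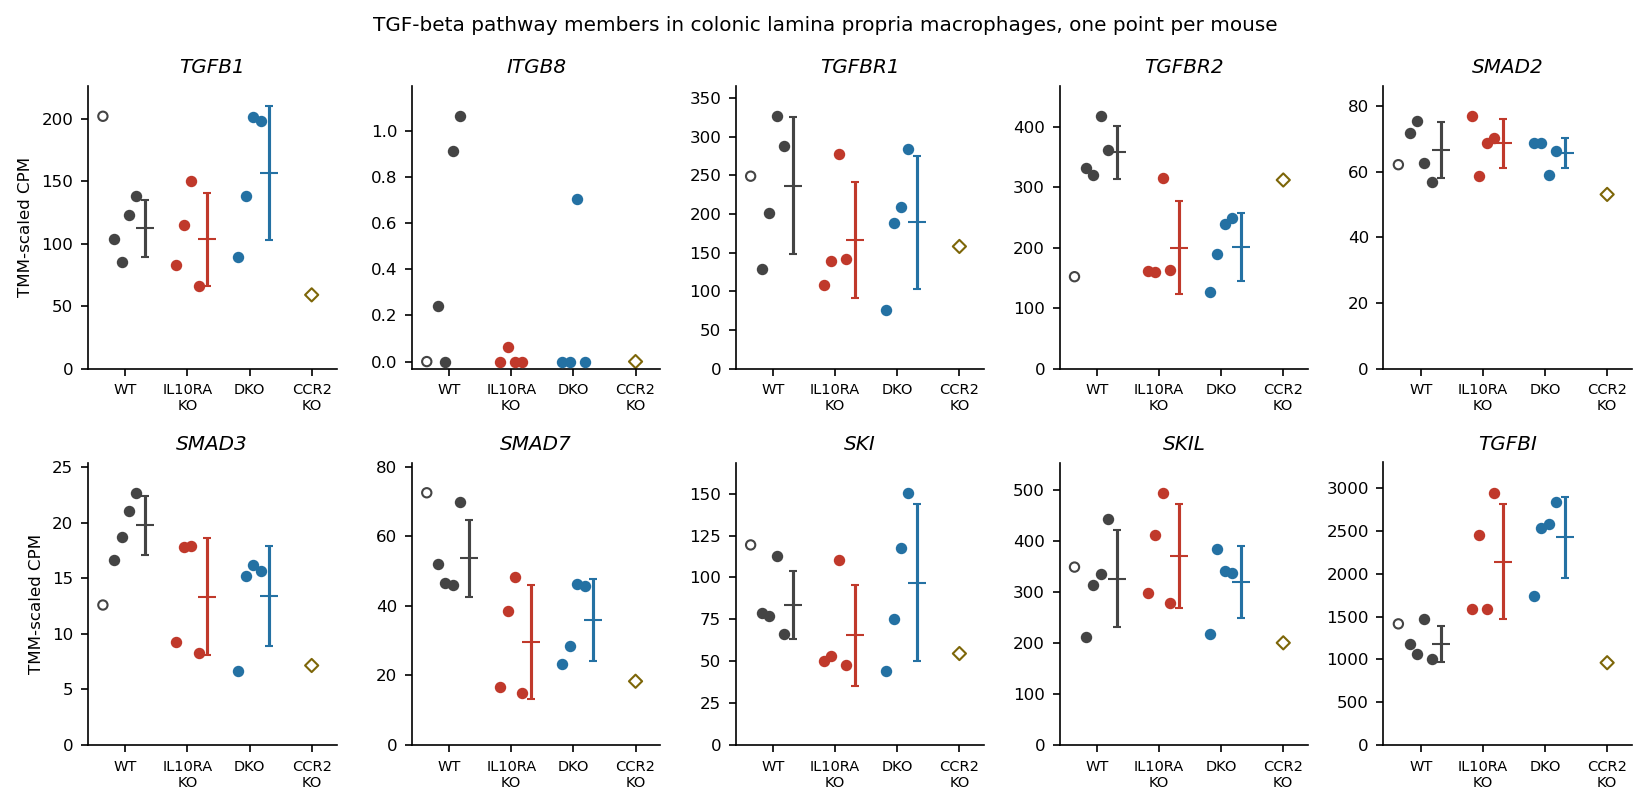
TMM-scaled read counts (CPM, linear axes) of the 10 members in each mouse. Filled points are the 12 libraries compared, with mean and SD beside them (none drawn for ITGB8), the open circle is WT mouse 11 and the open diamond the single CCR2KO mouse. TGFBR2 sits lower in the 4 IL10RAKO and 4 DKO mice than in the 4 filled WT mice, and TGFBI sits higher.

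The first question was which members differed between mice without *Il10ra*, which develop colitis, and WT. Between IL10RAKO and WT, edgeR's quasi-likelihood test with Benjamini-Hochberg adjustment called 2076 of 13136 genes at an adjusted p under 0.05, or 15.8% of those tested (8.7% higher, 7.1% lower). Of the 9 tested members, 1 was higher, 1 was lower and 7 did not pass, a share near that background. Their median log2 fold change was -0.35, against -0.07 over all genes tested. Between DKO and WT, 2424 genes or 18.5% were called (9.23% higher, 9.22% lower), and again 1 member was higher, 1 lower and 7 did not pass, with a median of -0.03 against -0.06 over all genes. Both comparisons share the same WT mice.

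**Figure D2:**
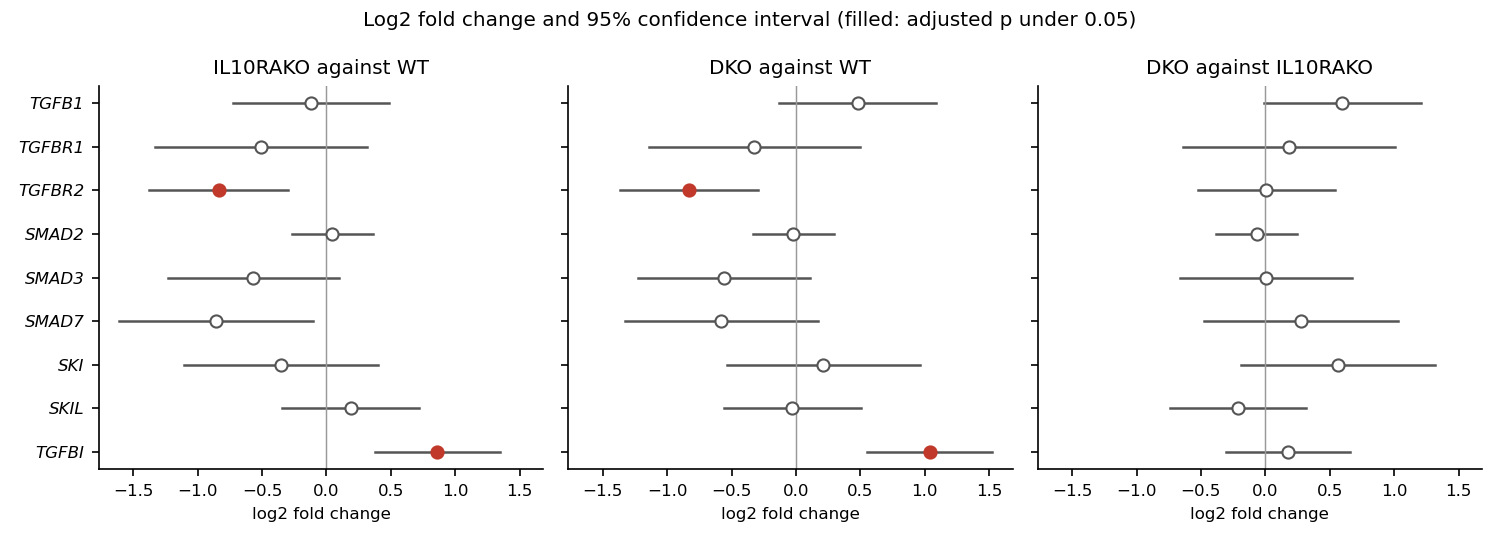
Log2 fold change (x axis) with its 95% confidence interval for the 9 tested members (rows) in each of the 3 comparisons. Filled points passed an adjusted p of 0.05. TGFBR2 lies left of zero and TGFBI right of zero in both comparisons with WT, and no member passed between DKO and IL10RAKO.

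TGFB1 (*Tgfb1*, chr7:25687002-25705077), the main TGF-beta ligand of immune cells, was at 103, 85.3, 123 and 138 CPM in WT mice 4, 5, 10 and 13. It was at 83.1, 115, 150 and 65.9 CPM in IL10RAKO mice 1, 2, 7 and 8, and at 89.5, 138, 202 and 198 CPM in DKO mice 3, 9, 12 and 14. The groups overlapped throughout, with DKO mice 12 and 14 above every WT mouse of the fit. The log2 fold change was -0.12 ± 0.28 (SE) in IL10RAKO (adjusted p = 0.821) and 0.48 ± 0.28 in DKO (adjusted p = 0.271), both by edgeR's quasi-likelihood test.

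ITGB8 (*Itgb8*, chr12:119158022-119238802), the integrin subunit that releases active TGF-beta, was near the limit of detection. It had 5, 0, 22 and 16 reads in WT mice 4, 5, 10 and 13. IL10RAKO mouse 2 had 1 read and the other IL10RAKO mice none, and DKO mouse 12 had 10 reads and the other DKO mice none. A count of 0 allows up to 3 reads, or 0.124 to 0.211 CPM at the depth of these libraries. At 0.911 and 1.07 CPM, WT mice 10 and 13 stood above these floors. However, WT mouse 5 had no read and DKO mouse 12 had 10 reads. ITGB8 was not tested, and with groups that overlapped its absence of reads in most knockout libraries is not evidence of a difference. These floors cover counting error only.

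TGFBR2 (*Tgfbr2*, chr9:116084293-116175360), the type II receptor that binds the ligand first, was at 333, 320, 418 and 361 CPM in WT mice 4, 5, 10 and 13. It was at 162, 160, 316 and 164 CPM in IL10RAKO mice 1, 2, 7 and 8. In DKO mice 3, 9, 12 and 14 it was at 127, 190, 239 and 249 CPM. All 8 mice without *Il10ra* were below the lowest of the 4 WT mice, although IL10RAKO mouse 7 came close to it. The WT mean was 1.79-fold that of IL10RAKO and 1.78-fold that of DKO. TGFBR2 fell by 0.84 ± 0.25 (SE) on the log2 scale in IL10RAKO (adjusted p = 0.0354) and by 0.83 ± 0.25 in DKO (adjusted p = 0.033), by edgeR's quasi-likelihood test. The call is close to the threshold. With WT mouse 11 added, which had 152 CPM, the adjusted p was 0.177 in IL10RAKO and 0.172 in DKO. It was also lost in IL10RAKO (adjusted p 0.0508 to 0.109) without any one of IL10RAKO mice 1, 2 and 8, WT mice 5, 10 and 13 and DKO mouse 9, and in DKO (0.0646 to 0.0908) without DKO mice 3 or 9 or WT mice 10 or 13. Among the libraries with XIST, WT stood at 320 to 361 CPM against 160 and 162 CPM in IL10RAKO and 249 CPM in DKO, and among those with Y-linked transcripts, WT mouse 10 at 418 CPM stood above all 5 knockout mice (127 to 316 CPM), while WT mouse 11, also with Y-linked transcripts, stood at 152 CPM, below 4 of them.

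TGFBR1 (*Tgfbr1*, chr4:47353222-47414931), the type I receptor kinase, varied widely within each genotype. It was at 129, 202, 326 and 289 CPM in WT mice 4, 5, 10 and 13, at 108, 139, 277 and 142 CPM in IL10RAKO mice 1, 2, 7 and 8, and at 75.7, 188, 209 and 284 CPM in DKO mice 3, 9, 12 and 14. The groups overlapped, and the log2 fold changes of -0.51 ± 0.38 (adjusted p = 0.416) and -0.32 ± 0.38 (adjusted p = 0.612) did not pass edgeR's test. Their 95% intervals ran from -1.33 to 0.32 and from -1.14 to 0.50. Without one mouse the fold changes ran from -0.86 to -0.31 and from -0.58 to -0.05. The ratio of TGFBR1 to TGFBR2 on the RPKM scale, which needs no scaling between libraries, was 0.814 ± 0.238 (SD, n = 4) in WT. IL10RAKO had 1.03 ± 0.127 and DKO 1.13 ± 0.288, and the ranges overlapped.

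SMAD2 was the steadiest member. It was at 71.9, 75.3, 62.5 and 56.7 CPM in WT mice 4, 5, 10 and 13, and between 58.7 and 76.9 CPM in all 8 knockout mice. The 95% interval of its log2 fold change was -0.27 to 0.36 in IL10RAKO and -0.34 to 0.29 in DKO. SMAD3 (*Smad3*, chr9:63646767-63757994), the other receptor-activated SMAD, was at 16.7, 18.7, 21.1 and 22.7 CPM in WT and at 9.26, 17.8, 18 and 8.32 CPM in IL10RAKO. The DKO mice had 6.68, 15.2, 16.2 and 15.7 CPM, all below the lowest WT mouse of the fit, while WT mouse 11 had 12.6 CPM. The fold changes of -0.57 ± 0.31 (adjusted p = 0.248) and -0.56 ± 0.31 (adjusted p = 0.241) did not pass edgeR's test. Per length the ratio of SMAD2 to SMAD3 (SD, n = 4) was 2.18 ± 0.543 in WT, while IL10RAKO had 3.77 ± 1.76 and DKO had 3.58 ± 1.96, with overlapping ranges.

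SMAD7, which is itself switched on by TGF-beta and feeds back on its receptors, was at 52.1, 46.5, 46.1 and 69.9 CPM in WT mice 4, 5, 10 and 13. It was at 16.7, 38.6, 48.2 and 14.9 CPM in IL10RAKO mice 1, 2, 7 and 8 and at 23.4, 28.4, 46.2 and 45.6 CPM in DKO mice 3, 9, 12 and 14. IL10RAKO mice 1 and 8 had the lowest values, and IL10RAKO mouse 7 and DKO mouse 12 overlapped WT. The log2 fold change of -0.86 ± 0.35 in IL10RAKO was as large as that of TGFBR2 but did not pass edgeR's test (adjusted p = 0.121), nor did that of -0.58 ± 0.35 in DKO (adjusted p = 0.282). Without IL10RAKO mouse 7 it reached -1.19 (adjusted p = 0.0357, edgeR), and with libraries scaled by their totals alone -1.15 (adjusted p = 0.0441). The ratio of SMAD7 to SMAD3 per length (SD, n = 4) was 3.33 ± 0.563 in WT, 2.59 ± 0.516 in IL10RAKO and 3.41 ± 0.827 in DKO, with overlapping ranges.

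The corepressors did not pass in either comparison. SKI (*Ski*, chr4:155154075-155222592) was at 78.6, 77, 113 and 66.4 CPM in WT mice 4, 5, 10 and 13. IL10RAKO mice 1, 2 and 8 lay at 48 to 53 CPM and mouse 7 at 111 CPM, and the DKO mice ranged from 44.3 CPM in mouse 3 to 151 CPM in mouse 14. The fold changes were -0.35 ± 0.35 (adjusted p = 0.55) and 0.21 ± 0.35 (adjusted p = 0.728) by edgeR's test. Without one mouse they ran from -0.73 to -0.17 and from -0.076 to 0.46. SKIL (*Skil*, chr3:31095058-31122577), a close relative of SKI that TGF-beta both induces and degrades, was at 212, 313, 336 and 444 CPM in WT, at 298, 413, 495 and 279 CPM in IL10RAKO and at 218, 384, 341 and 338 CPM in DKO, with no separation of the groups. The ratio of SKIL to SKI per length (SD, n = 4) was 2.36 ± 1.04 for WT, 3.44 ± 0.78 for IL10RAKO and 2.18 ± 0.827 for DKO.

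TGFBI (*Tgfbi*, chr13:56609523-56639562), a secreted adhesion protein named for its induction by TGF-beta and abundant in macrophages, was at 1182, 1066, 1469 and 1005 CPM in WT mice 4, 5, 10 and 13. It was at 1585, 2454, 1588 and 2947 CPM in IL10RAKO mice 1, 2, 7 and 8. In DKO mice 3, 9, 12 and 14 it was at 1745, 2537, 2582 and 2835 CPM. All 8 mice without *Il10ra* were above all 5 WT mice, mouse 11 included (1416 CPM), and the CCR2KO mouse with 962 CPM was below them. The mean was 1.82-fold that of WT in IL10RAKO and 2.05-fold in DKO. TGFBI rose by 0.86 ± 0.23 (SE) on the log2 scale in IL10RAKO (adjusted p = 0.0185) and by 1.04 ± 0.23 in DKO (adjusted p = 0.00551), by edgeR's quasi-likelihood test. The call in DKO was kept without any one mouse (adjusted p 0.00319 to 0.021). In IL10RAKO it was lost without IL10RAKO mice 2 or 8 or WT mice 5 or 13 (adjusted p 0.0512 to 0.0636) and with library totals in place of TMM (0.53, adjusted p = 0.0807, edgeR). Among the libraries with XIST, WT stood at 1005 to 1182 CPM against 1585 to 2835 CPM in the 3 knockout mice, and WT mice 10 and 11 stood below all 5 knockout mice with Y-linked transcripts (1588 to 2947 CPM). TGFBI and TGFBR2 thus moved in opposite directions in the same mice, and both calls were kept when the libraries were also adjusted for gene length, TGFBR2 at -0.78 and -0.82 (adjusted p 0.0183 and 0.012) and TGFBI at 0.85 and 1.04 (adjusted p 0.02 and 0.00537).

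The comparison of DKO with IL10RAKO asked what the further loss of *Ccr2* did. Only 6 of 13136 genes, or 0.0457%, passed edgeR's quasi-likelihood test (388 at an unadjusted p under 0.05, and 24 and 25 past the adjusted threshold with DESeq2 and edgeR's exact test). None of the 9 tested members and none of the 78 other tested pathway genes passed. TGFBR2 differed by 0.01 (95% interval -0.53 to 0.54) and SMAD2 by -0.07 (-0.38 to 0.25) on the log2 scale. TGFB1 differed by 0.60 (-0.01 to 1.21), the widest gap among the members in the main fit, with an unadjusted p of 0.0536 and an adjusted p of 0.9999 by edgeR's test. SKI was close behind at 0.57 (-0.19 to 1.32). Leaving out one mouse took SKI up to 0.96 and TGFB1 up to 0.85, so this order is not firm.

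The single CCR2KO mouse, which kept *Il10ra*, was below all 4 WT mice of the fit for 8 of the 9 tested members and within their range for TGFBR1 (158 CPM). Of all 13136 genes tested, 23.3% lay below these 4 WT mice in this library and 21.8% above them. SMAD3 was at 7.16 CPM and SMAD7 at 18.3 CPM, against 16.7 and 46.1 CPM in the lowest of these WT mice and within the range of the mice without *Il10ra*. TGFB1 was at 59 CPM, SKI at 54.6 CPM, SKIL at 201 CPM and SMAD2 at 53.1 CPM. TGFBR2 at 312 CPM was just under the lowest of these 4 WT mice and above WT mouse 11 (152 CPM). With 1 mouse there is no test.

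Several members deviated together in some libraries of a genotype. Set against the mean of their own 4 mice, 7 of the 9 tested members, TGFB1, TGFBR1, TGFBR2, SMAD3, SMAD7, SKI and SKIL, were all low in IL10RAKO mice 1 and 8 and DKO mouse 3, and all high in IL10RAKO mouse 7 and DKO mice 12 and 14. SMAD2 and TGFBI did not follow this pattern, and the 7, singled out after their values were seen, were split in IL10RAKO mouse 2 (TGFBR2 at -0.26, SMAD7 at 0.56), DKO mouse 9 and WT mice 10 and 13. Over all genes, 46.5% to 52% were below the mean of their genotype in each of the 12 libraries. In DKO mouse 3 the deviations ran from -0.52 for SKIL to -1.17 for TGFBR1 on the log2 scale, and in IL10RAKO mouse 7 from 0.46 for SKIL to 0.88 for SMAD7. A measure over all genes moved with it in these 6 knockout libraries: genes with over 6000 bases of exon (3932 genes) less those under 2000 (1935 genes) stood at -0.34 in DKO mouse 3, -0.24 in IL10RAKO mouse 8 and -0.11 in IL10RAKO mouse 1, and at 0.38 in IL10RAKO mouse 7, 0.28 in DKO mouse 12 and 0.07 in DKO mouse 14. In WT mice 4 and 5, where these 7 members were all below their mean, it was 0.05 and 0.06 instead, and in WT mouse 10, where TGFBR1 (0.55), SKI (0.46) and TGFBR2 (0.23) were above theirs, it was -0.14. Its part in the spread of the members was not tested.

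**Figure D3:**
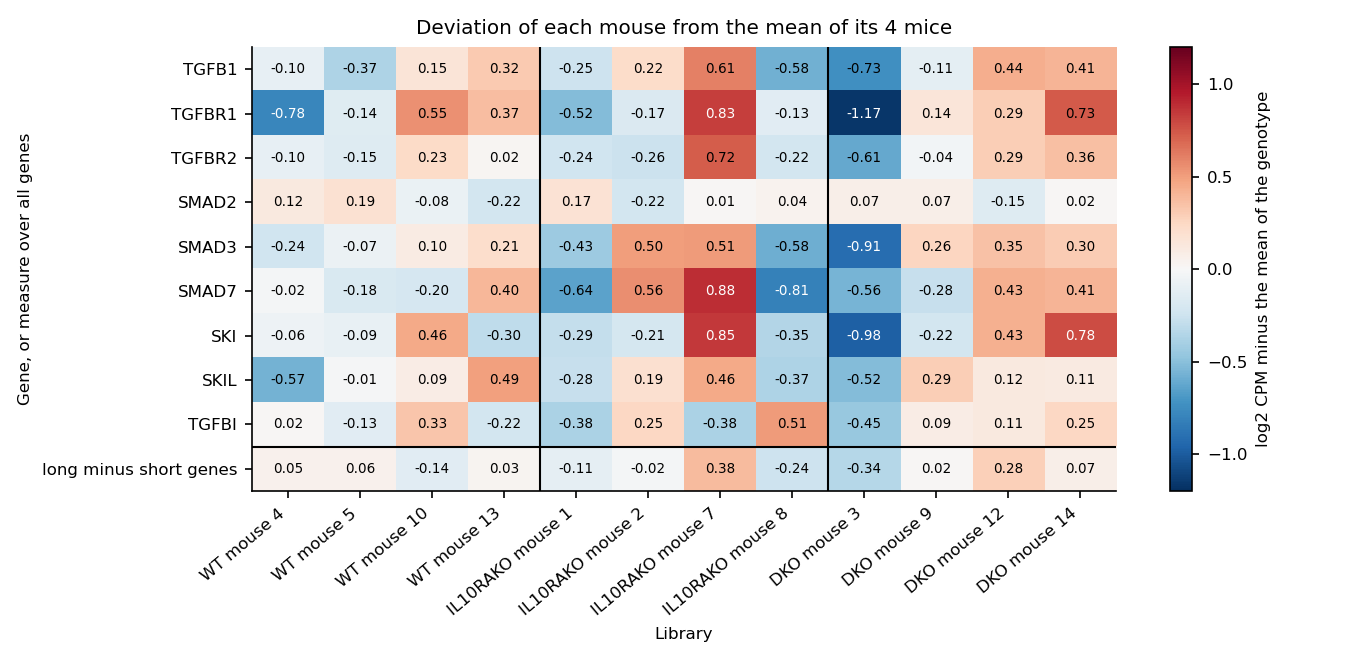
Log2 CPM of the 9 tested members (rows) in each library (columns) less the mean of the 4 mice of that genotype, in colour and as printed values. The bottom row is the difference between long and short genes over the whole table, on the same scale. DKO mouse 3 is low and IL10RAKO mouse 7 high for most members, and the bottom row is -0.34 and 0.38 there.

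Genes whose pattern over the 12 libraries was most like a member were found by the root mean square difference of centred log2 CPM, among all genes tested. For TGFBR2 these were ATP6V0A1 (0.15), PPP1R10 (0.17) and RBPJ (0.17). For TGFBI they were APP (0.21), ARRDC4 (0.22) and ADAM9 (0.22), and for SMAD7 HDAC7 (0.19), DGKD (0.20) and RUBCN (0.25). SMAD2, with its small spread, came closest to KDM1A (0.08). The genes nearest to the rest were EIF4G2 (0.15) for TGFB1, NOTCH1 (0.17) for TGFBR1, BTAF1 (0.18) for SMAD3, TMEM94 (0.20) for SKI and ATP9B (0.16) for SKIL.

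The pathway around the members was read from 6 lists that together held 88 other genes, of which 78 were tested. In IL10RAKO 10 of these were higher, 19 lower and 49 did not pass, at a median log2 fold change of -0.34, while DKO had 11 higher, 23 lower and 44 that did not pass, at a median of -0.32. The called genes were 37.2% and 43.6% of those tested on these lists, beside 15.8% and 18.5% over all genes, whose medians were -0.07 and -0.06. The lists were chosen with earlier results of these data known, so these shares are a description and not a test of the pathway. Some of the genes that fell, such as DCN, moved with the fibroblast markers, and the part of fibroblast RNA was not tested.

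Among 15 tested ligands, latency proteins and activators, 3 rose and 4 fell in IL10RAKO, and 3 rose and 5 fell in DKO. MMP14, a membrane protease that can release active TGF-beta, was at 256 to 298 CPM in WT, 671 to 944 CPM in IL10RAKO and 761 to 1153 CPM in DKO, a rise of 1.48 ± 0.16 and 1.80 ± 0.16 on the log2 scale (adjusted p = 3.06e-05 and 4.8e-06, edgeR). LTBP2, a matrix protein of the latency family, had no read in any WT mouse. Set against the floor of 3 reads in each WT library, its mean of 1.90 CPM in IL10RAKO was at least 11.8-fold higher and that of 2.98 CPM in DKO at least 18.5-fold higher. LTBP4 and LTBP1, which tether latent TGF-beta to the matrix, and the ligand TGFB2 fell in both. LTBP4 was at 26.9 to 81.7 CPM in WT and 0.418 to 4.05 CPM in the knockouts. TGFB2 was at 1.76 to 5.38 CPM in WT and at most 0.348 CPM in the knockouts. With WT mouse 11 added, which had no read of TGFB2, its fall in DKO no longer passed (adjusted p = 0.0794, edgeR). The other settings were not read for TGFB2 in IL10RAKO or for LTBP1 in DKO. TGFB3 did not pass (-0.41 and -0.26). These low ligand and latency genes moved in the same direction as the fibroblast markers given above, and the part of fibroblast RNA in them was not tested.

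Of 12 tested coreceptors and other receptors of the family, none rose, and 3 fell in IL10RAKO and 2 in DKO, with medians of -0.73 and -0.62. NRP1, a coreceptor that also binds TGF-beta, was at 174 to 204 CPM in WT, 92.9 to 134 CPM in IL10RAKO and 78.9 to 124 CPM in DKO. It fell by 0.67 ± 0.18 and by 0.88 ± 0.18 on the log2 scale (adjusted p = 0.0191 and 0.00323, edgeR). With the adjustment for gene length the change of NRP1 in IL10RAKO was -0.55 (adjusted p = 0.0605, edgeR). ACVR2B, an activin receptor, fell by 1.18 and 1.28, and with WT mouse 11 added no longer passed (adjusted p = 0.145 and 0.104, edgeR). TGFBR3, the betaglycan coreceptor, fell by 3.52 in IL10RAKO from 3.69 to 6.92 CPM in WT, and its -2.74 in DKO did not pass (adjusted p = 0.0665, edgeR). Its call in IL10RAKO was lost without any one of 5 mice (adjusted p 0.0562 to 0.0872, edgeR).

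Among 17 tested SMADs and regulators inside the cell, 3 rose and 1 fell in each comparison. The corepressor TGIF1 was at 138 to 217 CPM in WT and 380 to 532 CPM in the 8 knockout mice, a rise of 1.21 ± 0.17 and 1.14 ± 0.17 (adjusted p = 0.000274 and 0.000386, edgeR). The inhibitory SMAD6 rose by 1.27 and 1.75, but WT mouse 11 had 43.6 CPM, above every knockout mouse, and with it added the changes were 0.25 (adjusted p = 0.853) and 0.72 (adjusted p = 0.465, edgeR). STRAP, which holds SMAD7 at the receptor, rose by 0.49 and 0.71, the first of these being 0.17 (adjusted p = 0.421, edgeR) with library totals in place of TMM. The call in IL10RAKO was also lost under other settings given below, and without any one of 4 mice (adjusted p 0.0573 to 0.1, edgeR). PMEPA1, a TGF-beta-induced inhibitor of the pathway, was at 112 to 169 CPM in WT, 31 to 76 CPM in IL10RAKO and 44.1 to 56.6 CPM in DKO, a fall of 1.32 ± 0.25 and of 1.53 ± 0.25 on the log2 scale (adjusted p = 0.00208 and 0.000616, edgeR). SMAD4, the partner of SMAD2 and SMAD3, did not pass (0.26 and 0.37), although without WT mouse 4 its change in DKO was 0.52 (adjusted p = 0.0288, edgeR).

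Of 13 genes widely induced by TGF-beta, 3 rose and 2 fell in IL10RAKO, and 3 rose and 4 fell in DKO, so the list did not move one way. CDKN1A, an inhibitor of the cell cycle, rose by 1.75 and 1.54, BHLHE40, a transcriptional repressor, by 1.70 and 1.68, and ID2, an inhibitor of helix-loop-helix factors, by 1.28 and 1.03. Each of these is also known to respond to other signals. PMEPA1, given above, and CTGF, the older symbol under which the table lists *Ccn2*, fell in both. With WT mouse 11 added CTGF did not pass in either comparison (adjusted p = 0.0584 and 0.18), and in DKO it did not pass without DKO mouse 12 or WT mouse 13 (0.0531 and 0.0618, edgeR).

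Of 10 tested macrophage and microglia genes known to need TGF-beta, none rose and 4 fell in IL10RAKO, and 1 rose and 5 fell in DKO, with medians of -0.46 and -0.79. The purinergic receptor P2RY12 was at 51.5 to 57.2 CPM in WT, 19.4 to 34.3 CPM in IL10RAKO and 17.1 to 34.1 CPM in DKO. The lipid receptor GPR34 was at 52.9 to 104 CPM in WT against 8.59 to 30.1 CPM and 12.1 to 22 CPM, a fall of 1.86 ± 0.35 and of 2.30 ± 0.35 (adjusted p = 0.00204 and 0.000403, edgeR). TMEM119 fell by 0.96 and by 1.16, with the call in IL10RAKO lost without any one of 3 mice (adjusted p 0.0608 to 0.0678, edgeR). SIGLECH fell by 3.72 and by 4.77, although WT mouse 11 had only 0.0733 CPM of SIGLECH against 16 to 27.8 CPM in the other WT mice. With this mouse added the SIGLECH call in IL10RAKO was lost (adjusted p = 0.0585, edgeR). The chemokine receptor CX3CR1 was at 319 to 431 CPM in WT, 81.3 to 327 CPM in IL10RAKO and 135 to 217 CPM in DKO, and fell in DKO by 1.21 on the log2 scale (adjusted p = 0.0162), a call lost without DKO mouse 3 or 12 (0.0521 and 0.052, edgeR). Its -0.74 in IL10RAKO did not pass (adjusted p = 0.136), but with library totals in place of TMM it was -1.06 (0.0277, edgeR). The gene that rose in DKO was MERTK, a receptor for dying cells, at 0.98 (adjusted p = 0.0386, edgeR). It no longer passed with library totals (adjusted p = 0.111), with WT mouse 11 added (0.0626), or without any one of DKO mice 9, 12 and 14 and WT mice 4 and 10 (0.0751 to 0.114, edgeR). It also did not pass with only DKO and WT in the fit (0.0549, edgeR) or with limma on the deposited pseudocounts (0.0543). P2RY13, OLFML3 and ITGB5 did not pass in either comparison.

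Among 13 tested activin and BMP ligands and extracellular inhibitors, 1 rose and 6 fell in IL10RAKO and 1 rose and 7 fell in DKO. The one that rose was INHBA, the subunit of activin A, a ligand that signals through SMAD2 and SMAD3 by its own receptors. It was at 3.53, 7.21, 2.73 and 5.99 CPM in WT mice 4, 5, 10 and 13, and at 387, 1278, 257 and 882 CPM in IL10RAKO mice 1, 2, 7 and 8. In DKO mice 3, 9, 12 and 14 it was at 875, 1127, 816 and 570 CPM. The lowest knockout mouse was far above the highest of the 5 WT mice and above the CCR2KO mouse (4.54 CPM), with rises of 7.18 ± 0.56 and 7.46 ± 0.57 on the log2 scale (adjusted p = 2.09e-06 and 1.47e-06, edgeR). BMP2 fell by 2.22 and by 2.48. The matrix proteins DCN and BGN and the follistatin-like FSTL1 fell by 3.28 to 3.75. DCN is one of the 7 fibroblast markers, and was at 50.9 to 76.4 CPM in WT against 2.68 to 8.56 CPM in the knockouts.

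**Figure D4:**
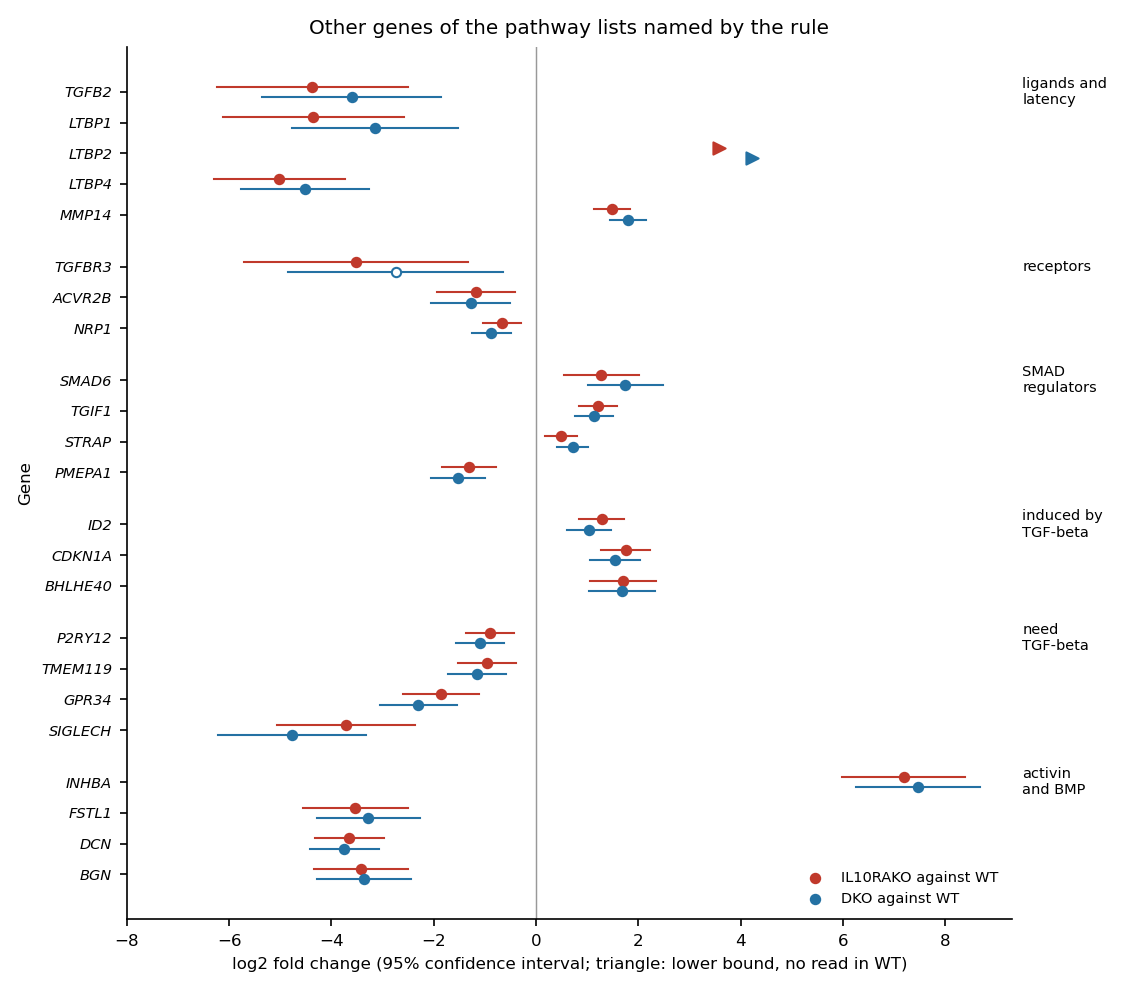
Log2 fold change (x axis) with 95% confidence interval for the pathway genes beside the members (rows, grouped by list), in IL10RAKO against WT and DKO against WT. Filled points passed an adjusted p of 0.05, open points did not, and triangles mark the lower bound for LTBP2, which had no read in WT. INHBA stands above 7 in both comparisons, while NRP1, PMEPA1 and GPR34 lie below zero.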

How the data were processed

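Sorted lamina propria macrophages of 14 mice were sequenced from low-input cDNA libraries, made after enrichment with oligo dT beads per the study's methods. The authors aligned reads to mm10 with STAR 2.5.1b, and their processing notes also name bcl2fastq 2.20 and edgeR 3.34.0. They deposited whole-number read counts per gene for 14 libraries. A second deposited table, treated as a score and used only as an alternative, holds edgeR pseudocounts of 12 libraries (13338 genes) that the authors scaled to a common library size. Whether counting used strand is not given in the sources used here.

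Counts of those 12 libraries were scaled with TMM, filtered with filterByExpr (minimum count 10, 13136 genes kept) and fitted by genotype with edgeR 4.0.16 (glmQLFit and glmQLFTest, legacy mode, R 4.3.3). Benjamini-Hochberg adjustment ran over all tested genes, at a threshold of 0.05. The log2 CPM used a prior count of 2. RPKM used the merged exon length in GENCODE vM21, to which 24490 of 24982 genes were matched, and no member shared exon sequence with another gene. The fit was also run on simulated data, where small changes were often missed and some large ones as well. A gene that did not pass may therefore still have changed. Promoters came from RefSeq (GRCm38.p6). Alternatives were DESeq2 1.42.0, limma 3.58.1 on the pseudocounts, other scalings and filters, and leaving out each mouse.

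The members and lists were chosen with earlier results of these data known. Named are the members, TGFB2, TGFB3, INHBA, the targeted genes, markers, up to 4 called genes a list with the smallest p in each comparison, and the nearest genes by pattern. MERTK, BMP2, SMAD4, CTGF, CX3CR1, P2RY13, OLFML3 and ITGB5 were named after their values were seen. Each library is another mouse, so p-values measure the spread between mice.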

Additional observations from a re-analysis of the deposited data

Results flagged for a closer look

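A library far from the others of its genotype was looked for among 40 sets of a member and a genotype, on the log2(CPM + 1) scale, where chance alone flags about 1 set in 20. WT was taken both with and without mouse 11, so these sets overlap. IL10RAKO mouse 7 was far above the other IL10RAKO mice for TGFBR2 (8.31) and for SKI (6.80). DKO mouse 3 was far below the other DKO mice for SMAD3 (2.94). WT mouse 11 was far below the other 4 WT mice for TGFBR2 (7.26). For ITGB8, IL10RAKO mouse 2 (0.0872) and DKO mouse 12 (0.768) had the only reads of their genotype, which were 1 and 10 reads. Where the other libraries of a genotype have no read, any read is flagged, so these say nothing about the mice. In data outside the comparisons, WT mouse 11 was above the highest of the other 4 WT mice for TGFB1 (202 against 138 CPM), SMAD7 (72.5 against 69.9 CPM) and SKI (119 against 113 CPM). The CCR2KO mouse was above the highest of those 4 WT mice for none of the members, and below the lowest for 8 of the 9 tested, where 23.3% of all genes tested were below and 21.8% above.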

How the results depend on the processing

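Directions of TGFBR2 and TGFBI against WT were kept under each of the 13 other settings tried and without any one mouse, and the losses of their calls are given beside their values. Requiring a log2 fold change of at least 1 left 1366 genes in IL10RAKO and 1586 in DKO, with 0 and 1 members. With WT mouse 11 added, 1 member passed in each comparison. Without one mouse, 0 to 3 members passed in IL10RAKO (1485 to 2554 genes in all), 1 to 2 in DKO (1691 to 2995 genes) and 0 between DKO and IL10RAKO (4 to 10 genes, and 24 with DESeq2 and 25 with edgeR's exact test). With library totals in place of TMM, the median over all genes moved from -0.07 to -0.38 in IL10RAKO and from -0.06 to -0.32 in DKO, and the share of calls that were higher fell to 23.8% and 25.9%. Of the other pathway genes named, calls in IL10RAKO were lost without one mouse for NRP1 (IL10RAKO mice 2, 8), SMAD6 (IL10RAKO 1, 2), TMEM119 (IL10RAKO 1, 2, WT 10), STRAP (IL10RAKO 1, 2, WT 10, 13), TGFBR3 (IL10RAKO 1, 2, 8, WT 10, 13) and ACVR2B (the same and DKO 9), and in DKO for ACVR2B (DKO 3, WT 10, 13), at adjusted p of 0.0503 to 0.107 by edgeR. In IL10RAKO, STRAP also failed with edgeR's exact test (adjusted p 0.0701), ACVR2B with no filter (0.0672) and SMAD6 with library totals (0.068). With only the 2 genotypes compared, STRAP (0.0825), ACVR2B (0.0655) and SMAD6 (0.0537) failed, as did STRAP with at least 10 counts in every library (0.0518).

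Some small, uncalled changes turned sign, and the cause was not tested. In IL10RAKO these were SMAD2 (-0.27), SKIL (-0.13) and SMAD4 (-0.048) with library totals, and SMAD2 (-0.0056) with at least 10 counts in every library. In DKO they were SKI (-0.036) with library totals, SMAD2 with no filter (0.0029), with WT mouse 11 (0.0011) and with the length offset (0.028), and SKIL with the offset (0.017). Between DKO and IL10RAKO they were SMAD3 with the bias-adjusted deviance (-0.014) and, with the offset, TGFBR2 (-0.044) and SMAD3 (-0.015). Without one mouse, the log2 change in IL10RAKO ran from -0.35 to 0.054 for TGFB1 and from -0.023 to 0.12 for SMAD2. In DKO it ran from -0.18 to 0.16 for SKIL, -0.088 to 0.047 for SMAD2, -0.54 to 0.073 for TGFB3 and -0.076 to 0.46 for SKI. Between DKO and IL10RAKO it ran from -0.11 to 0.33 for TGFBR2, -0.16 to 0.23 for SMAD3 and -0.079 to 0.56 for TGFBR1. The offset for exon length was chosen after seeing the data.

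Per length over the longest transcript only, WT levels were 43.7 RPKM for TGFB1, 48.6 RPKM for SKIL and 393 RPKM for TGFBI. With WT mouse 11, the WT ratio of SMAD7 to SMAD3 was 4.08 and that of TGFBR1 to TGFBR2 was 1.06. No paired analysis was possible because each genotype holds different mice and the labels give no number that pairs them. The values are limited by 4 mice a genotype, uneven sex and colitis that goes with loss of *Il10ra*. Further limits are epithelial RNA in WT mice 10 and 11 and markers of other cells that move with genotype. ITGB8, at 0 to 22 reads with overlapping groups, was not tested.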
